A study of Homo sapiens with 2 samples.

Results

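Annexins are proteins that bind membranes rich in acidic phospholipids when calcium rises. The genes described here are 10 named members of the family, ANXA1 to ANXA9 and ANXA11, picked out by their symbols from 26506 genes in the deposited tables; the family was chosen for description with earlier results of these data known. All 10 had a row in both tables, and all reached 1 CPM (counts scaled to library size) in at least 1 library. The cells were human corneal epithelial cells of an established line (ATCC CRL-11515), and their poly(A) RNA was sequenced after 72 hours in 1 of 2 media. One group was kept in keratinocyte serum-free medium (KSFM). The other was kept in a special medium, DMEM/F12 with fetal bovine serum at 10%, calcium chloride at 1 mM, EGF at 10 ng/mL and antibiotic/antimycotic. RNA of 3 cultures was pooled per medium, so each medium has 1 library, no spread over cultures was measured, and no difference carries a p-value.

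Each annexin has a conserved core of repeats that holds the calcium and phospholipid sites, and an N-terminal tail that differs between members and sets their partners. In the core the calcium ion bridges protein and membrane, so annexins move to membranes as cytosolic calcium rises. In surface epithelia they are known for linking membranes to the actin cortex, for vesicle traffic, for resealing of torn plasma membrane and, outside the cell, for control of plasmin formation and of inflammation.

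The libraries held 21604652 (KSFM) and 16900472 (special medium) counts. Every ratio divides the special medium by KSFM, and a range in parentheses beside it is its exact 95% Clopper-Pearson interval, which covers counting error only. A gene was counted as higher or lower when its ratio reached 2-fold and its interval left out equality, among 13632 genes at 1 CPM or more. The corneal marker list summed to 1095 and 1451 CPM (KSFM first, as in all pairs of values below). Of its 11 genes, 6 reached 1 CPM in either library. TKT had 216 and 613 CPM and EPCAM 266 and 350, while CDH1 had 507 and 405 and KRT5 82.4 and 54.4. PAX6 had 69 and 73 counts, and KRT14, TP63 and ALDH3A1 stayed below 1 CPM in both libraries. The defining corneal keratins of the list were absent, KRT12 at 0 counts in both libraries and KRT3 at 0 and 1. Marker lists of stromal fibroblasts, vascular endothelium, immune cells and melanocytes summed to at most 62.7 CPM each, and CD68 alone gave 57.0 and 59.8 CPM of the highest, that of immune cells. The endothelial list of 6 genes summed to 0.973 and 15.5 CPM. In it CDH5 had 3 and 236 counts and PECAM1 had 2 and 15, while KDR had 10 in both libraries, VWF had 6 and 2, and TEK and EMCN had 0 in both; the part of such cells in the ratios below was not tested. In bulk RNA, more cells that express a gene and more of its RNA per cell cannot be told apart.

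Annexin transcripts as a family were about 2-fold more abundant in the special medium. The 10 members summed to 2048 TPM in KSFM and 4839 TPM in the special medium, a 2.36-fold difference (TPM is adjusted for transcript length and is the scale used here to compare genes). As a share of counts they made up 0.174% (95% exact interval 0.173% to 0.176%) of the KSFM library and 0.359% (0.356% to 0.362%) of the special medium library. The ratio of these shares was 2.06. On TPM the median of all genes was also shifted upward, by 0.15 on the log2 scale, and the TPM ratios here include that shift. Without ANXA2, the most abundant member, the sum still differed 2.25-fold, from 964 to 2173 TPM. ANXA2 held 52.9% of the family's TPM in KSFM and 55.1% in the special medium. Of the added TPM, 56.7% came from ANXA2 and 24.7% from ANXA1.

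**Figure D1:**
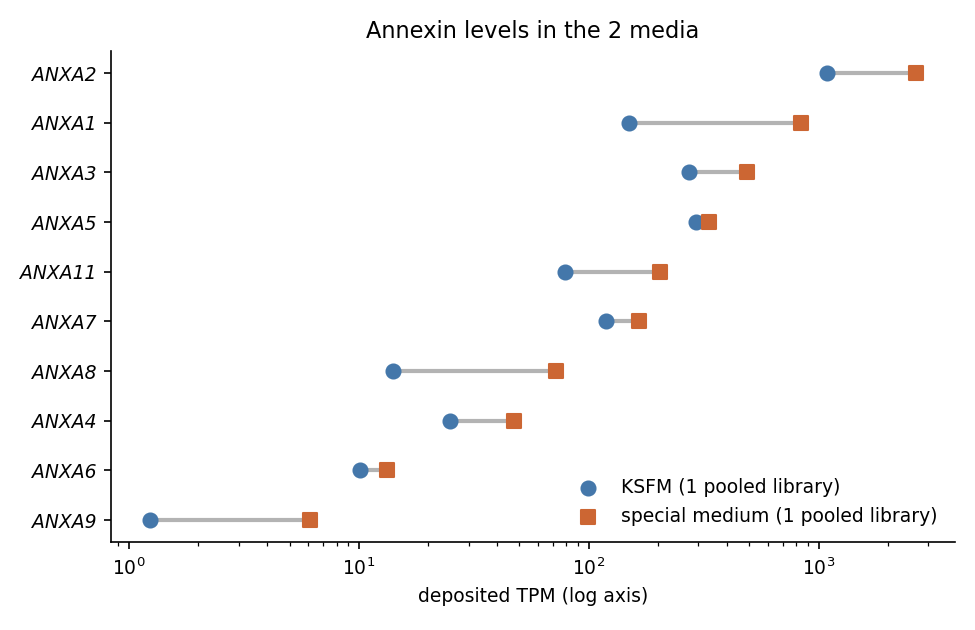
Deposited TPM (log axis) of each annexin in the KSFM library (circles) and the special medium library (squares), 1 pooled library each, ordered by the level in the special medium. ANXA2 lies highest in both, at 1083 and 2666 TPM, and ANXA1 moves from 149.7 to 840 TPM, past ANXA3 and ANXA5.

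The order of levels changed between the media. In KSFM the members ran, from highest to lowest TPM, ANXA2, ANXA5, ANXA3, ANXA1, ANXA7, ANXA11, ANXA4, ANXA8, ANXA6 and ANXA9. In the special medium they ran ANXA2, ANXA1, ANXA3, ANXA5, ANXA11, ANXA7, ANXA8, ANXA4, ANXA6 and ANXA9. ANXA1 thus went from 4th to 2nd and ANXA5 from 2nd to 4th, while ANXA7 with ANXA11 and ANXA4 with ANXA8 changed places. The place of ANXA8 rests on an estimated division of reads with its copy ANXA8L1, described below. Summed with that copy it had 46.6 and 220 TPM, above ANXA4 (24.9 and 47.3) in both libraries. The intervals below do not cover that uncertainty. For all 9 neighbouring pairs in each library the counting interval of the TPM ratio left out equality. The closest pair was ANXA5 over ANXA3 in KSFM, at 1.07 (1.03 to 1.11), and whether cultures would vary by more than that was not measured. Among all 26506 genes, ANXA2 ranked 117th by TPM in KSFM and 46th in the special medium, and ANXA1 ranked 1009th and 151st.

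Measured on counts, 5 of the 10 members were higher in the special medium by the 2-fold rule, 0 were lower and 5 were neither. Over all 13632 genes 9.86% were higher and 6.77% lower by that rule. The 5 were ANXA1, ANXA8, ANXA9, ANXA11 and ANXA2, and each of their intervals lay wholly beyond 2-fold, as did those of 6.14% of all genes upward and 2.90% downward. The ratios of ANXA1, ANXA8 and ANXA9 also passed 4-fold, against 2.99% of all genes upward and 1.19% downward. The median log2 ratio of the members was 0.93, against −0.00042 over all genes. All 10 ratios lay above 1, as did 50.0% of those of all genes, and 8 intervals lay wholly above 1, as did 37.2% of all. Upper quartile scaling and removal of a trend on length and GC content put ANXA5 just below equality, at log2 ratios of −0.01 and −0.0066.

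**Figure D2:**
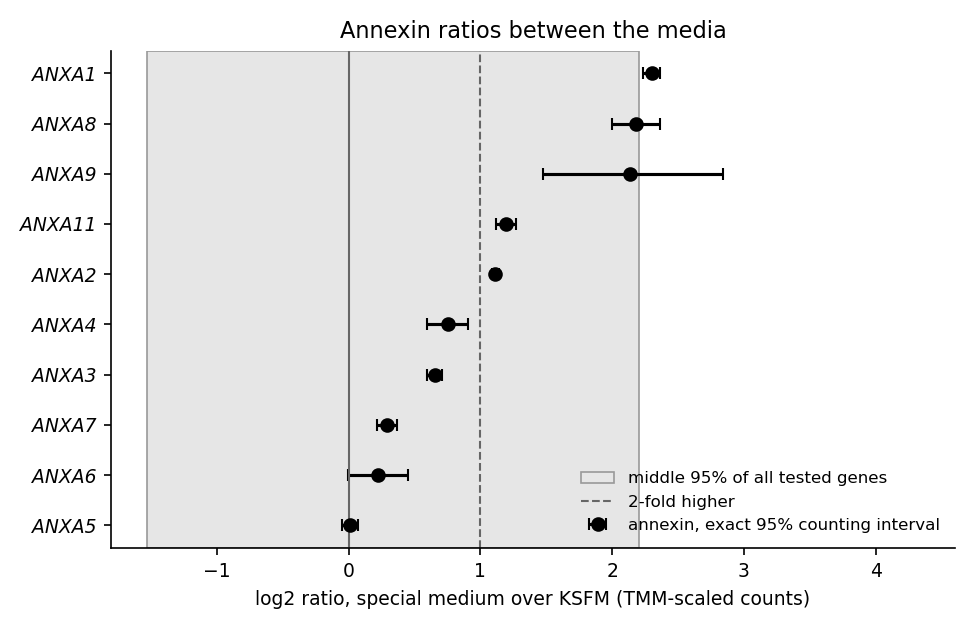
Log2 ratio of special medium over KSFM for each annexin (points, TMM-scaled counts) with its exact 95% counting interval (bars); the shaded band spans the middle 95% of all tested genes, −1.53 to 2.20, and the dashed line marks 2-fold. ANXA1, ANXA8, ANXA9, ANXA11 and ANXA2 lie right of the dashed line, and ANXA5 lies on equality.

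ANXA1 encodes the annexin long known as lipocortin, a glucocorticoid-induced protein whose N-terminal peptide acts on formyl peptide receptors to limit inflammation. It (ENSG00000135046) spans chromosome 9 from 73151757 to 73170393 on the plus strand of GRCh38, in GENCODE release 29 gene bounds. It had 2533 and 9788 counts, or 117 and 578 CPM. Its level was thus higher in the special medium than in KSFM, a 4.93-fold ratio (4.72 to 5.15). Its ratio ranked 316th from the top of the 13632 genes. On TPM, a scale where the median of all genes is also shifted upward, the ratio was 5.61-fold. The intervals of ANXA1, ANXA8 and ANXA9 as deposited overlap, so these 3 ratios are not ordered beyond counting error. For ANXA8 that overlap rests on the estimated division of reads with its copy ANXA8L1, described below. Summed with that copy its ratio was 4.18 (3.90 to 4.47), an interval wholly below that of ANXA1.

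The RefSeq promoter window of ANXA1 is 38.4% G or C, and that of ANXA2, described next, is 78%. Over 35116 windows of all genes the median was 58%, and the 5th and 95th percentiles were 34.4% and 78.4%. The window of ANXA5, at 78.8%, is richer than that of ANXA2. For their contrast, a stretch of the ANXA1 window and one of the ANXA2 window are shown. Both come from RefSeq promoter windows (GRCh38.p14), read 5′ to 3′ on the gene's strand and stopped at the first base of any exon of the gene in GENCODE release 29. The ANXA1 stretch, chr9:73151615-73151756 on the plus strand, has 142 bases, 33.8% of them G or C. The ANXA2 stretch, chr15:60398044-60398236 on the minus strand, has 193 bases, 81.3% of them G or C. It lies inside the GENCODE bounds of the gene, which reach 60402883, so annotated transcripts also start further upstream. Capitals mark matches to an AP-1 motif, TGANTCA, and to a GC box, GGGCGG, which overlaps itself in ANXA2.
ANXA1: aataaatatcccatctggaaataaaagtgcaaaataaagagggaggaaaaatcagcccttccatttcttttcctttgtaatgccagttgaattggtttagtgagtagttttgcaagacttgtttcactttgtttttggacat
ANXA2: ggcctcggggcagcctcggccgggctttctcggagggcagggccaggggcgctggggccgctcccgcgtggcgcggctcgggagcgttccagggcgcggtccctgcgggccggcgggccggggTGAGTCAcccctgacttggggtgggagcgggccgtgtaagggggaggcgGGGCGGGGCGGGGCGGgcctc

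Nearer the start, the 30 bases from 45 to 16 before the RefSeq start of ANXA1 (chr9:73151820-73151849), ANXA2 (chr15:60398002-60398031) and ANXA5 (chr4:121696996-121697025, minus strand) are shown to set a TATA box, TATAAA in capitals, beside a start without one. ANXA5 is the member whose level differed least between the media. Each of these stretches lies inside the GENCODE bounds of its gene, so annotated transcripts also start further upstream. ANXA9, also higher in the special medium, has no TATAAA in its window of 250 bases. ANXA3, ANXA4, ANXA6 and ANXA7, short of the 2-fold rule, have none in theirs either. Whether the box has a part in the ratios was not tested.
ANXA1: ttcctttaaaatccTATAAAatcagaagcc
ANXA2: gaggatgtggcgggTATAAAagccccaccc
ANXA5: gggcagggccggggtggggccgctggcgtt

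Windows of 250 bases before the start were in the RefSeq table for 9 of the 10 members, ANXA8 being the missing entry, and were searched on both strands for 5 motifs. TATAAA was found 31 bases before the start in ANXA1 and ANXA2, and 61 bases before it in 1 of the 3 windows of ANXA11, against 10.7% of 35116 windows of all genes. TGANTCA was found in ANXA2 (6.57% of all windows), and GGGCGG in ANXA2, ANXA4, ANXA5, ANXA6, ANXA7 and ANXA11 (42.6%). The E-box CACGTG was found in ANXA4 and ANXA6 (6.34%), and the ETS core GGAAGT in ANXA4 and ANXA11 (19.5%). ANXA4, ANXA6 and ANXA11 have several windows each, and a match of letters is not a site shown to be bound.

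The receptors through which ANXA1 is known to act were scarcely detected. FPR1 had 4 and 2 counts, FPR2 had 0 and 1, and FPR3 had 0 in both. A count of 0 allows up to 0.139 CPM in the KSFM library and 0.177 CPM in the other, at a limit of 3 counts. A list of 10 genes of the glucocorticoid response had 8 at 1 CPM or more. Of these 1 was higher and 3 were lower, with a median log2 ratio of −0.40. Of all genes 9.86% were higher and 6.77% lower. FKBP5, a co-chaperone of the glucocorticoid receptor, had 3618 and 990 counts and was 2.87-fold lower (2.67 to 3.08). The clock gene PER1 was 2.26-fold lower (2.01 to 2.53) and the kinase gene SGK1 2.09-fold lower (1.83 to 2.40). CRISPLD2 was 2.44-fold higher (1.60 to 3.79) on 35 and 67 counts. TSC22D3 had a ratio of 1.17 (1.04 to 1.32), short of the rule. The receptor gene NR3C1, also in the list, had 70.3 and 129 CPM, a ratio of 1.84 (1.72 to 1.97). Whether glucocorticoid signalling had a part in the level of ANXA1 was not tested.

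Annexins were early on described as inhibitors of phospholipase A2, the enzyme that frees arachidonic acid for prostanoid synthesis. In a list of 10 genes of that path, 2 of 7 measured were higher and 1 lower (median log2 ratio 0.88), against 9.86% and 6.77% of all genes. The cyclooxygenase genes PTGS1 and PTGS2 were 3.51-fold (3.17 to 3.88) and 3.54-fold (2.83 to 4.46) higher, from 24.3 to 85.3 CPM and from 4.96 to 17.6 CPM. The cytosolic phospholipase gene PLA2G4A had 20 and 21 counts, and a ratio of 1.34 (0.691 to 2.60). PLA2G4B was 3.06-fold lower on 328 and 84 counts, some of them shared with other rows, so its value is uncertain.

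ANXA2 encodes the annexin that pairs with S100A10 (p11) at the plasma membrane, where the complex is known as a docking site for plasminogen and its tissue activator. The gene (ENSG00000182718) spans chromosome 15 from 60347134 to 60402883 on the minus strand. It had 18689 and 31695 counts, or 866 and 1873 CPM, a 2.16-fold ratio (2.12 to 2.20). The ratio lies close to the 2-fold threshold but, on these counts, its interval is narrow and clear of it. Processed pseudogenes of ANXA2 took few of its reads. ANXA2P1, ANXA2P2 and ANXA2P3 had 7.96, 0 and 1.06 deposited counts in KSFM, against 6.10, 1.03 and 0. ANXA2P2 matched the coding sequence of ANXA2 at 98.4% of 1017 aligned bases, with 221 bases as the longest identical run. The deposited counts of ANXA2 and the 3 pseudogenes summed to whole numbers, 18698 and 31702, of which ANXA2 held 99.95% and 99.98%, and the summed ratio was again 2.16-fold.

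S100A10, the ANXA2 partner, had 2340 and 2542 counts, 108 and 150.2 CPM. It was 1.39-fold higher (1.31 to 1.47), short of the 2-fold rule. Per length, S100A10 stood at 0.191 of the TPM of ANXA2 in KSFM and at 0.125 in the special medium. S100A11, which binds ANXA1, had 705 and 1334 TPM and a count ratio of 1.57 (1.51 to 1.64), so it stood at 4.71 times the TPM of ANXA1 in KSFM and 1.59 times in the special medium. S100A6, which binds several annexins including ANXA11, had a ratio of 0.692 (0.659 to 0.727), and S100A4 had 29 and 39 counts. Of the 7 listed S100 partners, these 4 were measured and 0 passed the rule in either direction (median log2 ratio 0.56). Of all genes 9.86% passed it upward and 6.77% downward. S100A1, S100A12 and S100B had 0 counts in both libraries.

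The list of plasminogen activation at the cell surface had 4 of 9 measured genes higher and 0 lower (median log2 ratio 0.79). The shares over all genes were 9.86% and 6.77%. Urokinase, PLAU, the activator that cells carry on its own receptor, had 2878 and 13726 counts (107 and 735 TPM). Its receptor gene PLAUR was 2.06-fold higher (1.87 to 2.27), from 40.8 to 95.5 TPM. The tissue activator PLAT, the one known to bind the ANXA2 complex, had 735 and 595 counts, a ratio of 1.03 (0.925 to 1.15). The urokinase inhibitor SERPINB2 had 23 and 148 counts. PLG, the plasminogen gene itself, had 0 and 23 counts. The exact 95% lower bound of its ratio was 7.33, and it reached 0.81 TPM. The plasminogen receptor PLGRKT had a ratio of 0.554 (0.488 to 0.628), short of 2-fold lower.

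ANXA8 encodes an annexin found in stratified epithelia. The gene (ENSG00000265190) spans chromosome 10 from 47460162 to 47484158 on the minus strand and has a near-identical copy, ANXA8L1 (ENSG00000264230), on the plus strand from 46375627 to 46391784. Their coding sequences, 981 bases each, differ at 5 bases in the principal GENCODE transcripts and share an identical run of 408 bases. The differences are T16G, C276T, A528G, G530C and T939C, with positions counted from the A of the start codon, the ANXA8 base first and the ANXA8L1 base last. Bases 510 to 549 of both coding sequences are shown because they hold the closest pair of differing bases, in capitals, by which a read could be told apart.
ANXA8: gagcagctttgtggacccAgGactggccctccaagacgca
ANXA8L1: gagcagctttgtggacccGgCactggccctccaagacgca

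The deposited counts of ANXA8 were fractional, 324.86 in KSFM and 1154.91 in the special medium, and those of ANXA8L1 were 765.14 and 2414.09. Added together they gave whole numbers, 1090 and 3569, so the fractions of 1 row are made up by the other. ANXA8 received 29.8% of the pair in KSFM and 32.4% in the special medium, so how much of each level belongs to which copy is uncertain. Both rows and their sum were higher in the special medium. The sum does not depend on that division, while the ratio of each row does. ANXA8 had 15.1 and 68.3 CPM and was 4.53-fold higher (4.004 to 5.14). ANXA8L1 had 35.5 and 143 CPM and was 4.02-fold higher (3.71 to 4.37). The pair together was 4.18-fold higher (3.90 to 4.47). With its copy, ANXA8 reached 46.6 and 220 TPM, which would place the pair above ANXA4 in KSFM and above ANXA7 and ANXA11 in the special medium.

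ANXA9 and ANXA11 complete the higher members. ANXA9 is an atypical annexin whose core has lost the usual calcium-binding residues. The gene (ENSG00000143412) lies on chromosome 1 from 150982017 to 150995634. It was the scarcest member, at 25 and 86 counts (1.23 and 6.13 TPM), and its ratio of 4.39 (2.78 to 7.15) has the widest interval. ANXA11 carries a long N-terminal tail rich in glycine, tyrosine and proline, and is known to tether RNA granules to lysosomes. The gene (ENSG00000122359) lies on chromosome 10 from 80150889 to 80205572. It had 2224 and 3991 counts, 103 and 236 CPM, and was 2.29-fold higher (2.17 to 2.41). Its interval overlaps that of ANXA2.

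Of the 5 members short of the rule, ANXA4 and ANXA3 were nearest. ANXA4, known from secretory and absorptive epithelia, had 597 and 789 counts and a ratio of 1.69 (1.51 to 1.88). ANXA3, also expressed in epithelia and neutrophils, had 4888 and 6025 counts and a ratio of 1.57 (1.51 to 1.63). These intervals overlap each other and lie above those of the remaining 3. ANXA7, known as synexin for its part in granule fusion, had 2860 and 2745 counts, or 133 and 162 CPM, a ratio of 1.22 (1.16 to 1.29). It shares a long N-terminal tail with ANXA11, and their ratios differ beyond counting error. ANXA6, a double-length annexin made of a pair of cores, had 345 and 316 counts and a ratio of 1.17 (0.9996 to 1.36). ANXA5, which binds exposed phosphatidylserine and is the reagent used to stain dying cells, had 239 and 241 CPM. Its ratio of 1.01 (0.966 to 1.05) holds equality. On TPM it had 293 and 335, a ratio of 1.15, on a scale where the median of all genes is also shifted upward, by 0.15 on the log2 scale.

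**Figure D3:**
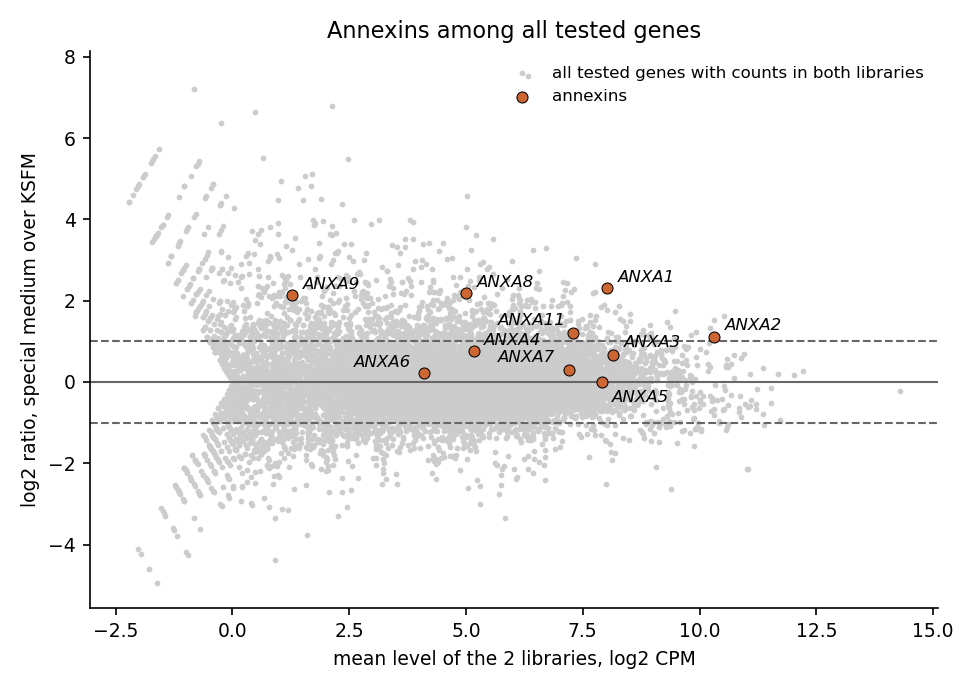
Log2 ratio of special medium over KSFM against the mean level of both libraries (log2 CPM) for tested genes with counts in both (grey) and the annexins (coloured, labelled); dashed lines mark 2-fold. ANXA1 and ANXA2 lie above the upper dashed line, at log2 ratios of 2.30 and 1.11, while ANXA5, at a level near that of ANXA1, lies at 0.01.

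Members alike in coding sequence included pairs with similar and with different ratios. In global alignments of the principal coding sequences, identity over the 45 pairs ran from 30.8% to 61.0%, with a median of 47.3%. The closest pair was ANXA4 with ANXA5 (61.0%), at log2 ratios of 0.75 and 0.01. ANXA3 with ANXA4 (60.1%) had 0.65 and 0.75, and ANXA1 with ANXA2 (59.1%) had 2.30 and 1.11. ANXA6, with a coding length of 2019 bases against 960 to 1515 in the others, was in each of the 7 least alike pairs, since most members leave much of its length unaligned.

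The mixture of transcript forms behind these values moved little between the libraries. The estimated count per TPM follows the effective length of a gene's transcripts and a scale common to all genes of a library. It was lower in the special medium library by a factor of 0.688 to 0.698 in the members. Over 11818 genes with at least 40 counts in each library that factor had a median of 0.699 and a middle 95% of 0.659 to 0.744. Both 0.688, in ANXA1, and 0.698, in ANXA6, lie inside that range. Divided by the median over all genes, which takes out the common scale, the factors of the members were 0.986 to 1.00. A change between transcript forms of equal length would not show in this measure.

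Other genes of the family were nearly silent apart from ANXA8L1. ANXA10 had 0 and 3 counts and ANXA13 had 0 and 1, which is too few to show a difference. ANXA2R, which encodes a receptor proposed for ANXA2, had 3 and 1.

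Annexins also act with penta-EF-hand proteins and the ESCRT machinery in membrane repair. In that list 3 of 22 measured genes were higher and 0 lower (median log2 ratio 0.21), against 9.86% and 6.77% of all genes. MYOF, a ferlin that works in membrane fusion and repair, had 206 and 656 CPM and was 3.19-fold higher (3.08 to 3.30). The calpain gene CAPN1 was 2.57-fold higher (2.45 to 2.69) and grancalcin, GCA, 2.07-fold (1.68 to 2.58). PDCD6, the ALG-2 protein that binds ANXA11, had 55.1 and 66.4 CPM (ratio 1.20, 1.11 to 1.31), and sorcin, SRI, which binds ANXA7, had 72.8 and 84.4 CPM (1.16, 1.08 to 1.25). The large scaffold gene AHNAK, a partner of the ANXA2 complex, had a ratio of 1.66 (1.60 to 1.72). The 9 ESCRT genes in the list, TSG101 with the CHMP and VPS4 genes, had log2 ratios between −0.89 in CHMP4A and 0.35 in CHMP4B, with 0 of them past the rule.

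Phosphatidylserine, the lipid that ANXA5 binds, is exposed by scramblases and drawn back by flippases. Of 13 measured genes of that list 4 were higher and 1 lower (median log2 ratio 0.60), against 9.86% and 6.77% of all genes. The scramblase family genes PLSCR1 and PLSCR4 were 2.98-fold (2.69 to 3.31) and 3.94-fold (1.95 to 8.62) higher, the second on 11 and 34 counts. The flippase genes ATP8B1 and ATP8A1 were 2.24-fold (1.99 to 2.52) and 2.73-fold (1.59 to 4.83) higher. The scramblase genes of the plasma membrane, ANO6 and XKR8, had ratios of 1.35 (1.29 to 1.41) and 0.988 (0.819 to 1.19). XKR9 had 45 and 16 counts and was 2.21-fold lower (1.22 to 4.18), with some reads shared with other rows.

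Copines and extended synaptotagmins are other calcium-dependent membrane binders, built on C2 domains. Of 8 measured, 2 were higher and 0 lower (median log2 ratio 0.25), CPNE2 at 2.77-fold (2.49 to 3.08) and CPNE7 at 2.10-fold (1.77 to 2.48). CPNE1, the most counted of them, had a ratio of 0.712 (0.687 to 0.739). Over the 8 lists of partner and related genes, 16 of 71 measured genes (22.5%) were higher and 5 (7.04%) lower, with a median log2 ratio of 0.27. Over all genes the shares were 9.86% higher and 6.77% lower. The members and these lists were named with earlier results of the series known, so their counts describe these libraries and show nothing particular to the lists.

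**Figure D4:**
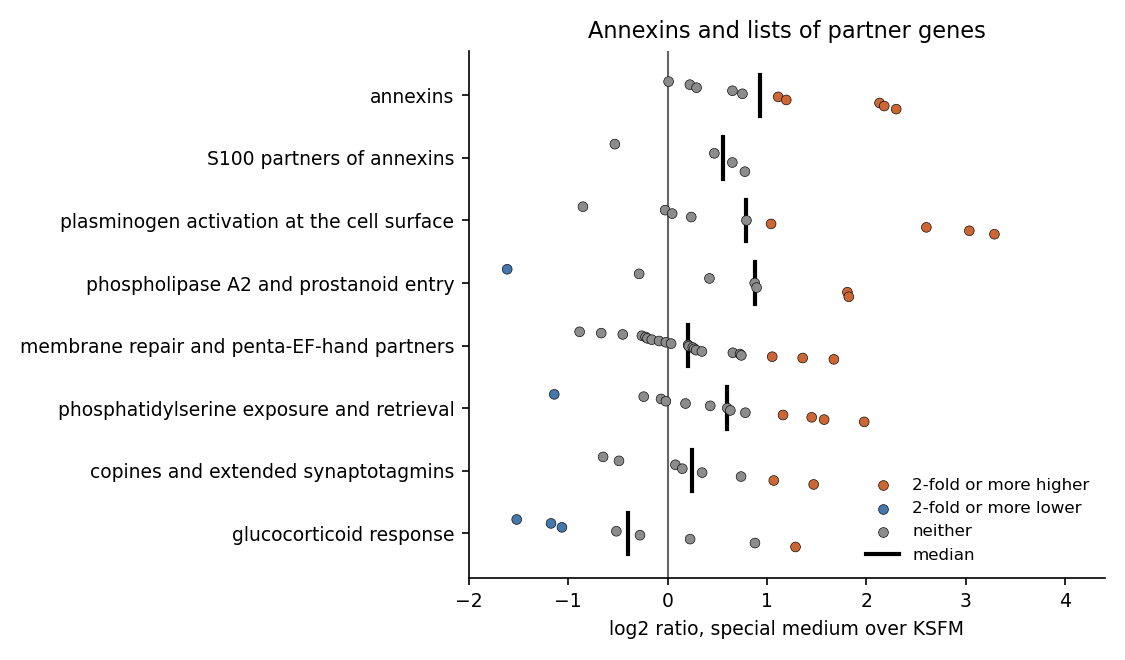
Log2 ratios of the annexins and of the measured genes in 7 of the 8 lists of partner or related genes (points, 1 per gene), with list medians as vertical bars; the formyl peptide receptors had no measured gene. The annexin median, 0.93, is the highest, and the glucocorticoid response list has a median below 0, at −0.40.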

How the data were processed

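RNA of 3 cultures per medium was pooled into 1 library. The GRCh38 build and the tools RSEM, HISAT2 2.1.0, fastp 0.20.0 and FastQC 0.11.9 are listed in the submitters' processing notes, which give no order of steps. Strand setting, annotation and RSEM version were not given in the sources used here. Per gene symbol, the authors deposited estimated counts and TPM values. Fractional values, in 11.3% of KSFM rows and 8.05% of special medium rows, mark reads divided between similar genes, so such rows are less certain. Here the estimated counts were rounded to whole numbers and scaled by TMM (edgeR 4.0.16; factors of 0.999 in KSFM and 1.00 in the special medium).

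The members and gene lists were chosen with earlier results of these data known. All members were named, every other family gene in the table, and from each list up to 6 genes past the rule, or the most counted; other genes named were chosen after their values were seen. Of 135 list entries 134 were found; ANXA8L2 was the exception. A count of 0 was set to a floor of 3. Reads here carry no molecular identifiers and may repeat a molecule. The pooled cultures give no replicate, so intervals cover counting error only. All member identifiers matched GENCODE release 29. Protein features of the members were planned but not analysed here. Tools were R 4.3.3, DESeq2 1.42.0 (size factors only), matplotlib 3.10.9, Biopython 1.88, pandas 2.3.3, scipy 1.17.1, numpy 2.4.6 and Python 3.11.15.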

Additional observations from a re-analysis of the deposited data

How the results depend on the processing

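The same 5 members stayed past the 2-fold rule under total count, DESeq2 size factor and upper quartile scaling, on TPM with or without centring, with no filter, with the interval wholly beyond 2-fold, after removal of a cubic trend on effective length and GC content, and with gene copies summed. A 10 CPM filter left out ANXA9, with 4 of 9 members higher, and a 4-fold rule left 3, by its own construction. No member was lower in any of these settings. The median log2 ratio of the members, 0.93, was 1.10 on TPM with a pseudocount of 1, 1.11 with a pseudocount of 0.1 and 0.75 with the 10 CPM filter, and lay between 0.86 and 0.95 elsewhere. TPM moved the median of all genes by 0.15 and 0.16, and higher genes made up 78.4% and 73.4% of those past 2-fold on these TPM scales, against 59.3% on counts. Depth limits ANXA9 most. No paired analysis was possible because each medium has 1 library, and no replicate could be left out for the same reason.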
